A study of Homo sapiens with 16 samples.

Results

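Argonaute 2 (Ago2) binding was examined on 23 genes of the Wnt, TGF-beta and Notch signalling pathways, in 293S cells given hippuristanol and in untreated cells. The genes were chosen by symbol alone, from the families FZD, WNT, LRP5, LRP6, DVL, AXIN, APC, CTNNB1, TCF7 and LEF1 for Wnt, SMAD, SMURF, TGFB, ACVR, BMP, BAMBI and SKI for TGF-beta with its BMP branch, and NOTCH, DLL, JAG, HES and NRARP for Notch. They make up 23 of 2213 genes with an Ago2 peak and 48 of 4768 deposited peaks, or 47 of 4718 once peaks of a gene with identical values are counted once. Of the 23 genes, 4 belong to Wnt, 13 to TGF-beta and 6 to Notch. No gene matched 8 of the 22 name patterns (WNT, LRP5, LRP6, DVL, AXIN, APC, LEF1 and JAG), and a gene without a listed peak may still be expressed or bound.

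293S is an established human embryonic kidney cell line. Per the labels, 6 CLIP and 2 RNA-seq libraries came from cells given 1 µM hippuristanol for 30 min, and 6 CLIP and 2 RNA-seq libraries from cells with no treatment. The CLIP libraries of each treatment are 2 replicates for each of 3 suppliers of the Ago2 antibody. The labels do not say whether replicates are separate cultures. In CLIP, a protein is fixed to its bound RNA by crosslinking and precipitated, and the RNA is sequenced. Of 9 genes known to be expressed in this line, 4 had a peak (VIM, NEFL, ENO2 and LHX1). NEFM, CDH2, PAX2, KRT8 and KRT18 had none, and neither had any of 9 markers of other cell types.

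Hippuristanol inhibits eIF4A, a helicase that opens the 5′ end of mRNAs for translation. Ago2 carries microRNAs, which pair through their seed with sites that lie mostly in the 3′ untranslated region (3′ UTR) of an mRNA. Wnt ligands bind Frizzled receptors and stabilise beta-catenin, which acts with TCF/LEF factors in the nucleus. TGF-beta, activin and BMP ligands join type I and type II receptor kinases that phosphorylate SMAD proteins, while inhibitory SMADs, SMURF ubiquitin ligases and the co-repressor SKI dampen the signal. Notch receptors, bound by Delta-like or Jagged ligands of a neighbouring cell, release an intracellular domain that switches on HES repressors and the feedback inhibitor NRARP.

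Seed sites of 8 microRNA families were located in the annotated 3′ UTRs of the signalling genes, and the sites below are examples from TGF-beta receptor genes and from the Notch genes DLL1 and NRARP. The mature microRNAs come from RefSeq (GRCh38.p14), with the seed, bases 2 to 8, in capitals, and no 2 of these 4 share a seed.
hsa-let-7a-5p: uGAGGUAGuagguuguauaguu
hsa-miR-17-5p: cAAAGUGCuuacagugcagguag
hsa-miR-19b-3p: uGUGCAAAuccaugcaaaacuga
hsa-miR-130b-3p: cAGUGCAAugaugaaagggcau

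The sites are written 5′ to 3′ as DNA from GENCODE 29 transcripts (GRCh38), with the 7 nt that pair with the seed in capitals. They lie in BAMBI (chr10:28682453-28682474 and chr10:28682545-28682566, plus strand), BMPR2 (chr2:202560138-202560159, plus strand), ACVR1B (chr12:51994173-51994194, plus strand), ACVR1C (chr2:157533821-157533842, minus strand), TGFBR3 (chr1:91680738-91680759, minus strand), DLL1 (chr6:170282647-170282668, minus strand) and NRARP (chr9:137301512-137301533 and chr9:137300802-137300823, minus strand).
BAMBI, miR-17 site: tctgctggacaggaGCACTTTa
BAMBI, miR-19 site: cttctgaaggattaTTTGCACa
BMPR2, miR-17 site: gttttttaagttttGCACTTTt
ACVR1B, let-7 site: cgtacgatggaggcCTACCTCt
ACVR1C, let-7 site: attttttttttgttCTACCTCa
TGFBR3, let-7 site: tttttgtactgtaaCTACCTCa
DLL1, miR-130 site: ccgtgacgtcgccgTTGCACTa
NRARP, first let-7 site: taccttcccgccaaCTACCTCg
NRARP, second let-7 site: ccttctccccgcgtCTACCTCc

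In BMPR2 the letters for miR-19, miR-130 and miR-17 overlap, starting at bases 447, 448 and 450 of the 3′ UTR. The peaks have hg19 coordinates and were not placed on GRCh38, so whether a site lies inside a peak was not examined, and no microRNA was measured.

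Each peak has 1 log average over both treatments and 1 log ratio of hippuristanol over untreated, both the authors' own values from their deposited table, pooled over libraries. The base of the logarithm and the depth per library are unknown, so values stay on the log scale without folds. Since each peak has a single pooled value, there is no replicate check and no test between treatments. The RNA-seq libraries were not analysed here, so the part of mRNA amount in these values was not tested. The value of a gene is the median of its distinct peaks. The median of all 2213 gene values was 0.17, and values are placed against this all-gene median.

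As a group, the 23 genes were centred near the all-gene median. Their median log ratio was 0.14 (exact order-statistic 95% interval over genes −0.30 to 0.49), against 0.17 (0.14 to 0.20) for all genes, and 10 lay above the all-gene median and 13 below it. A gene median above 0 was seen in 12 of the 23, against 60.5% of all genes. One gene, ACVR1B, had a median above 1, against 9.17% of all genes, and one, HES4, a median below −1, against 3.43%. Among the 47 peaks, 6 had a log ratio above 1, against 11.3% of all peaks, and 3 a log ratio below −1, against 4.22%. Shares this close to the background do not set the group apart. The 6 high peaks lay in ACVR2B, ACVR1B and FZD6, and the 3 low ones in DLL1, NRARP and HES4.

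**Figure D1:**
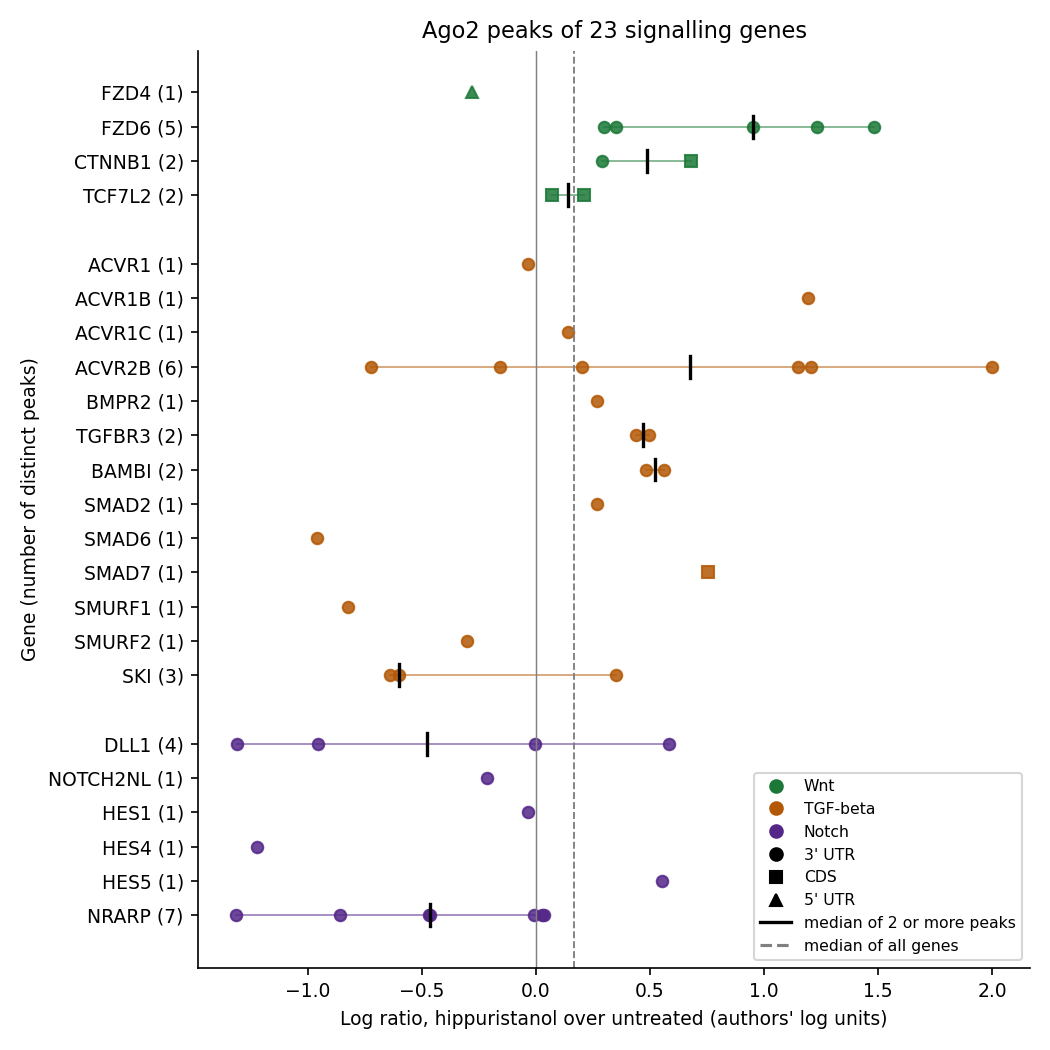
Log ratio of hippuristanol over untreated (x axis, authors' log units) for every distinct Ago2 peak of the 23 genes (1 row per gene, number of peaks in brackets); marker shape gives the region of the mRNA, black bars the median of genes with 2 or more peaks, and the dashed line the median of all genes at 0.17. Notch genes lie mostly to the left of the dashed line, and FZD6 has all 5 peaks to its right.

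Of the Wnt genes, FZD6 had the highest log ratios and FZD4 the lowest. FZD6, a Frizzled receptor known for planar cell polarity, had 5 peaks in its 3′ UTR with log ratios of 0.95, 1.23, 1.48, 0.35 and 0.30 in transcript order. All 5 lay above the all-gene median, and the median of 0.95 ranked 231 of 2213 genes. A higher median was seen in 2 of the 160 genes with at least 5 peaks. Neighbouring FZD6 peaks overlap, by 35 nt for the first pair and 20 nt for the last, so these are not 5 separate measurements.

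FZD4, a Frizzled receptor that also binds Norrin in retinal vessels, had a single peak, in its 5′ UTR, at −0.28. CTNNB1, which encodes beta-catenin, had 0.68 for a peak in coding sequence and 0.29 for one in the 3′ UTR, with a low log average of −7.45. Both CTNNB1 peaks lay above the all-gene median. TCF7L2, a TCF factor that beta-catenin binds, had peaks at 0.21 and 0.07 in stretches annotated as coding sequence. GENCODE lists 15 complete coding transcripts of TCF7L2 with 4 different stop positions, so that annotation depends on the transcript. For CTNNB1 it lists 39 with 2 stop positions, so the regions of its peaks may depend on the transcript too.

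The Wnt median was 0.31 over 4 genes, and 2 of the 4 lay above the all-gene median. The Wnt median minus the all-gene median was 0.14, and −0.027 without FZD6 or without CTNNB1. Without FZD4 or without TCF7L2 it was 0.32, so that 1 gene can decide the direction over so few.

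TGF-beta receptors mostly had log ratios above the all-gene median, with ACVR1B and ACVR2B highest. ACVR1B, a type I receptor for activin and Nodal, had 1 peak, in the 3′ UTR (chr12:52390342-52390368, hg19, plus strand), at 1.19, which ranked 120 of 2213 genes. ACVR2B, a type II activin receptor, had 6 distinct 3′ UTR peaks with a median of 0.68. Their values in transcript order were 1.15, 1.21, −0.72, −0.16, 2.00 and 0.20, so that 4 lay above the all-gene median and 2 below. The peak at 2.00 (chr3:38532126-38532152, hg19, plus strand) ranked 19 of 4718 peaks, and its neighbour 13 nt downstream had 0.20.

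The decoy and co-receptors were alike within themselves. BAMBI, a receptor-like protein without a kinase that blocks signalling, had peaks at 0.48 and 0.56. TGFBR3, or betaglycan, which presents ligand to the receptors, had peaks at 0.44 and 0.50 that are 4 nt apart. In each of these genes both peaks lay above the all-gene median, at gene medians of 0.52 and 0.47.

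The other receptors were close to the all-gene median. BMPR2, the type II BMP receptor, had 0.27, ACVR1C, a type I receptor of Nodal and activin, had 0.14, and ACVR1, a type I BMP receptor, had −0.03, each from 1 peak in the 3′ UTR. Of the 7 receptor genes, 5 lay above the all-gene median, with a median of 0.47 (interval −0.03 to 1.19).

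Inside the cell, most TGF-beta genes had low log ratios, and the inhibitory SMADs lay at opposite ends. SMAD6, which inhibits mainly BMP signals, had 1 peak in the 3′ UTR (chr15:67073980-67074000, plus strand) at −0.96, ranking 2118 of 2213. SMAD7, which inhibits both branches, had 1 peak in coding sequence (chr18:46448129-46448167, minus strand) at 0.75, ranking 379. Both had high log averages, −3.13 and −3.09, ranks 122 and 116 of 2213. They thus differ in annotated region as well as in value. GENCODE lists 2 stop positions for SMAD6 and 1 for SMAD7.

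SMURF1 and SMURF2, ubiquitin ligases that remove receptors and SMADs, had 1 peak each, at −0.82 and −0.30. SKI had 3 peaks at −0.60, 0.35 and −0.64 with a median of −0.60. Its last 2 peaks overlap by 29 nt yet differ by 0.99. Among 474 overlapping neighbours in the whole table the median difference was 0.34, and 43 pairs differed more. SMAD2, which receptors for TGF-beta and activin phosphorylate, had 1 peak at 0.27.

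Of these 6 genes, 2 lay above the all-gene median, and the median was −0.45 (interval −0.96 to 0.75). With so few genes, the intervals of the receptors and of the genes inside the cell are the full ranges of their values. They overlap, and the difference between the 2 lists was not tested. Over all 13 TGF-beta genes the median was 0.27 (interval −0.60 to 0.68), with 7 above the all-gene median and 6 below. When peaks below the median log average of all peaks were left out, the median of the remaining 11 genes minus that of all genes was −0.031.

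Notch genes lay below the all-gene median with 1 exception. The ligand DLL1 had 4 peaks at 0.00, −1.31, −0.95 and 0.59 in transcript order, with a median of −0.48. The lowest lies at chr6:170591725-170591761 (hg19, minus strand), and the last was the single one above the all-gene median. NRARP, which binds the Notch intracellular domain and limits it, had 7 peaks at 0.03, −1.31, −0.47, 0.04, −0.46, −0.01 and −0.86 in transcript order. None of the 7 lay above the all-gene median, the lowest was at chr9:140195406-140195476 (hg19, minus strand), and the gene median was −0.46. A higher median than that of NRARP was seen in 153 of the 160 genes with at least 5 peaks.

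The HES genes encode repressors of the basic helix-loop-helix class that Notch activates, and their 1 peak each lay far apart. HES5 had a log ratio of 0.55, HES1 of −0.03, like ACVR1 above, and HES4 of −1.22. The HES4 peak (chr1:934344-934396, hg19, minus strand) ranked 2175 of 2213 genes. HES5 and HES4 had the highest log averages of the 23 genes, −1.01 and −2.03, ranks 17 and 46. NOTCH2NL, a partial copy of the NOTCH2 receptor gene, had 1 peak at −0.22. Reads of NOTCH2NL may come from NOTCH2 or from its other near-identical copies, so its value is uncertain, and GENCODE lists the matching transcript as NOTCH2NLA.

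The Notch median was −0.34 over 6 genes (interval −1.22 to 0.55, their full range), and 1 of the 6, HES5, lay above the all-gene median. Its difference from the all-gene median was −0.51, and −0.38 without NRARP or −0.63 without NOTCH2NL. All 6 had a log average above the median gene, where 17 of the 23 signalling genes did. Across all 2213 genes the log average had little relation to the log ratio (Spearman's rho −0.03), and across the 23 genes rho was −0.32, as a description of genes measured in the same pooled libraries.

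**Figure D2:**
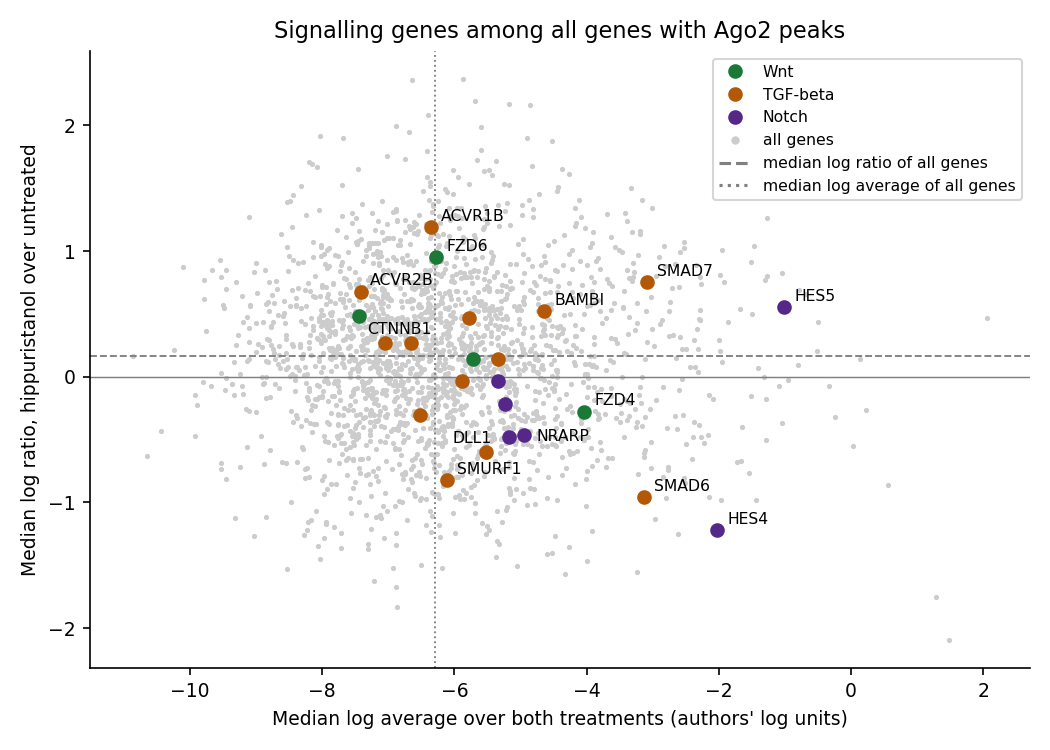
Gene medians of the log average over both treatments (x axis) and of the log ratio of hippuristanol over untreated (y axis), in the authors' log units, for the 23 signalling genes in colour and all 2213 genes in grey; dashed and dotted lines are the medians of all genes. All 6 Notch genes lie to the right of the dotted line, and HES5 alone of them lies above the dashed line.

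Set side by side, the pathways had medians of 0.31 for Wnt, 0.27 for TGF-beta and −0.34 for Notch, against 0.17 for all genes. Of the genes, 2 of 4, 7 of 13 and 1 of 6 lay above the all-gene median, in the same order. The ranges overlapped widely, from −0.28 to 0.95 for Wnt, −0.96 to 1.19 for TGF-beta and −1.22 to 0.55 for Notch. Genes are not replicates of a treatment, and whether the pathways differ was not tested.

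The other genes of each pathway, taken from lists of pathway parts that the symbols above do not cover, had medians on the other side of the all-gene median. Other Wnt genes with a peak numbered 15 of 77 listed names, with a median of −0.16 (interval −0.37 to 0.17) and 4 above the all-gene median. The highest were DKK1, a secreted Wnt inhibitor, at 0.99, the tankyrase TNKS2 at 0.22 and the polarity cadherin CELSR1 at 0.20. The lowest were the polarity protein VANGL1 at −0.92, casein kinase CSNK1A1, which starts the phosphorylation of beta-catenin, at −0.83, and the kinase NLK at −0.62.

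Other TGF-beta genes numbered 8 of 62 names, with a median of −0.02 (interval −0.75 to 0.49) and 2 above the all-gene median. ZFYVE9, an anchor that brings SMADs to receptors, had 0.49, the SKI relative SKIL 0.22 and the helix-loop-helix protein ID4 0.10. At the low end stood PMEPA1, an inhibitor of SMAD activation, at −0.75, the BMP co-receptor RGMB at −0.43 and the co-repressor TGIF1 at −0.37.

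Other Notch genes numbered 11 of 50 names and had a median of 0.54 (interval −0.73 to 0.78), with 8 above the all-gene median. SPEN, a co-repressor of the Notch transcription complex, had 0.80 over 7 peaks, the Numb-associated kinase AAK1 0.78 and the ubiquitin ligase ITCH 0.71. MAML1, a coactivator of the same complex, had −1.08, the fucosyltransferase POFUT1 that modifies Notch receptors −0.73 and the target HEY1 −0.21. Whether these genes differ from the ligand, HES and NRARP genes was not tested. With 14 of the 34 other pathway genes above the all-gene median, the lists together had a median of 0.01 (interval −0.32 to 0.22).

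**Figure D3:**
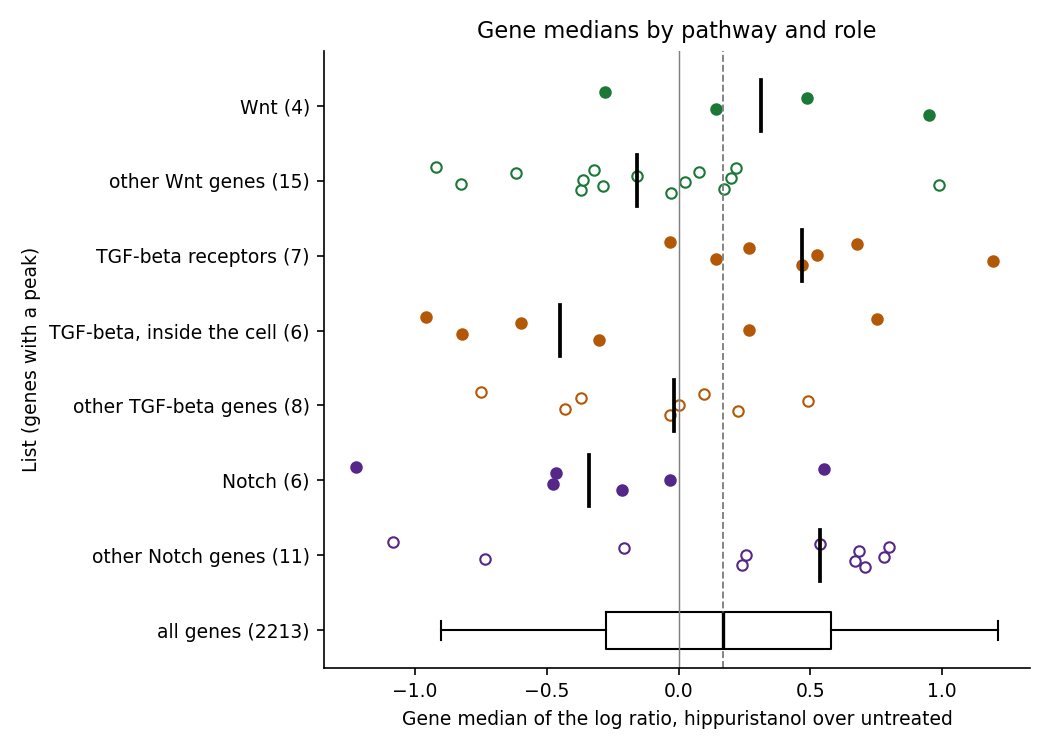
Gene medians of the log ratio of hippuristanol over untreated (x axis, authors' log units) by list (rows, genes with a peak in brackets); filled points are the signalling genes chosen by symbol, open points other genes of the pathway, black bars the list medians and dashed line the median of all genes. The box for all genes spans the quartiles, with whiskers at the 5th and 95th percentiles. Notch genes chosen by symbol centre at −0.34 and other Notch genes at 0.54.

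Within a gene, single peaks could differ as much as the pathways did. Of the 9 signalling genes with 2 or more peaks, 4 (FZD6, CTNNB1, BAMBI and TGFBR3) had every peak above the all-gene median and 1 (NRARP) had every peak below it, and the other 4 had peaks on both sides. Among all 750 genes with 2 or more peaks, 147 had every peak above it and 144 every peak below. ACVR2B had the widest span of the 23 genes, 2.72, and 1 of the 38 genes with 6 peaks had a wider one. The span was 1.90 in DLL1, where 11 of 66 genes with 4 peaks were wider. It was 1.35 in NRARP and 1.18 in FZD6, near the medians of 1.37 and 1.32 for genes with as many peaks.

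Along ACVR2B, the peaks at 1.15 and 1.21 lay within 387 nt of the first edge, those at −0.72 and −0.16 between 1040 and 1183 nt, and the last pair started 6924 and 6963 nt from it. DLL1 was lowest in the middle of its 486 nt, between 140 and 374 nt. The lowest NRARP peak lay 536 to 606 nt from the first edge, and further downstream the peak at 0.04 overlaps the next by 11 nt, and that one overlaps the peak after it by 39 nt. Neighbouring peaks of the signalling genes that do not overlap differed by a median of 0.85 over 19 pairs, against 0.60 over 2031 pairs in the whole table, and overlapping ones by 0.46 over 5 pairs, against 0.34 over 474.

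**Figure D4:**
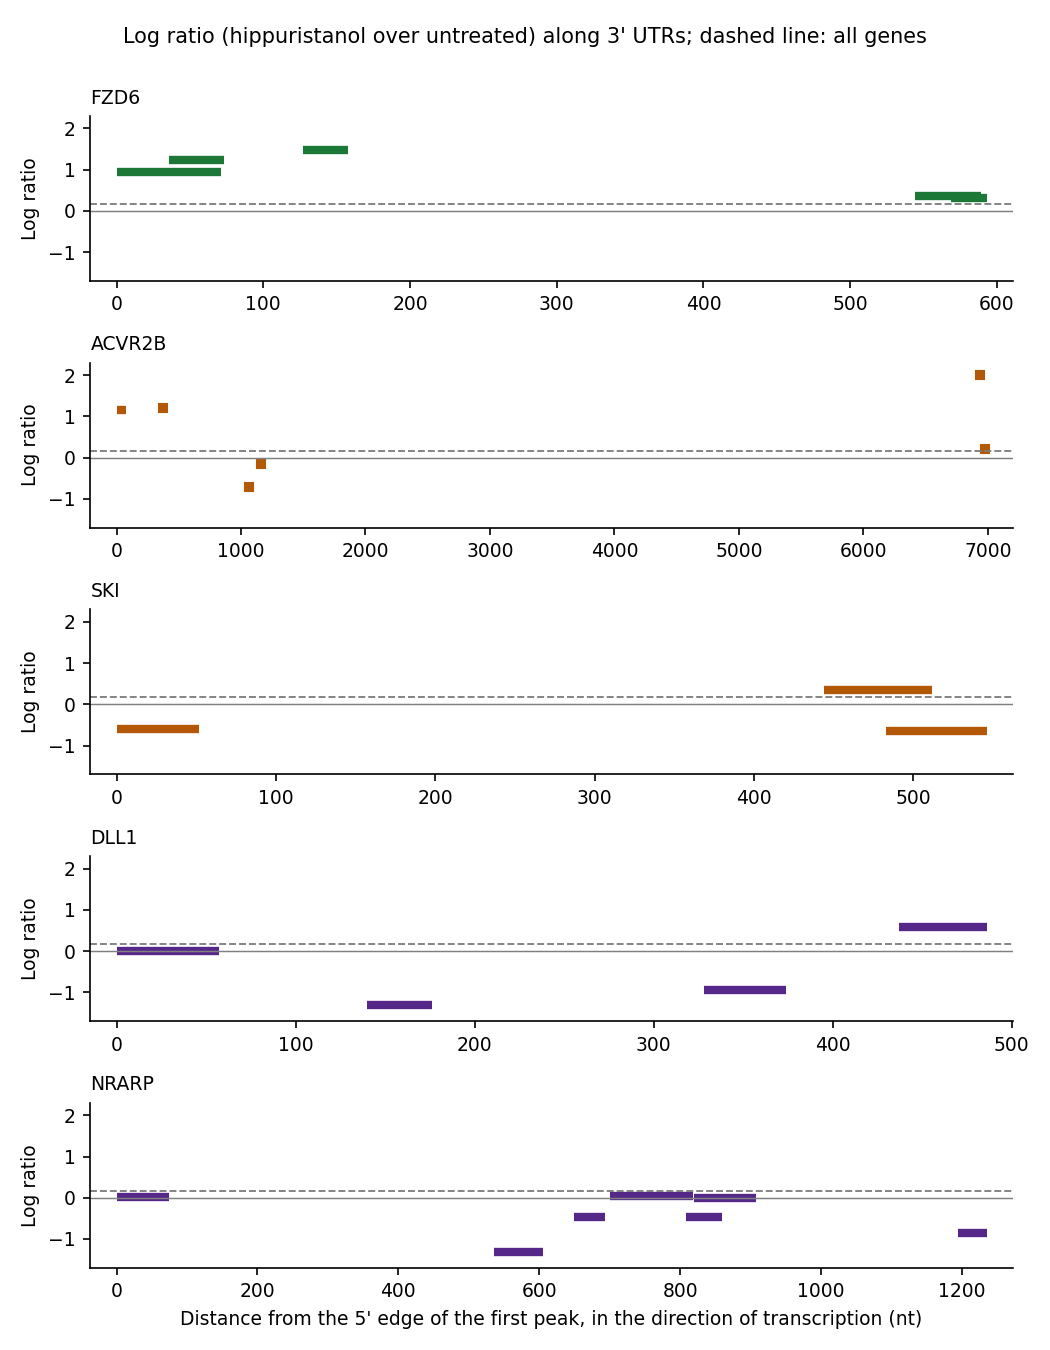
Log ratio of hippuristanol over untreated (y axis, authors' log units) for each distinct peak along the 3′ UTR, drawn from its first to its last base at the distance from the 5′ edge of the first peak in nt (x axis, a scale of its own for each gene), with all genes at the dashed line. FZD6 stays above the dashed line throughout and NRARP below it, while ACVR2B, SKI and DLL1 cross it. Squares mark peaks too short to draw to scale.

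Peaks of the signalling genes lay mainly in 3′ UTRs. These held 42 of 47 peaks, 89.4% (exact Clopper-Pearson 95% interval 76.9% to 96.5%), against 71.8% (70.4% to 73.2%) of 4028 peaks in mRNAs. The share was 6 of 10 for Wnt, 21 of 22 for TGF-beta and 15 of 15 for Notch. Peaks of 1 gene are not independent, and the intervals cover only the number of peaks. Genes with 5 or more peaks were 3 of 23 (FZD6, ACVR2B and NRARP), against 160 of 2213, and a typical peak was 41 nt long, against 39 nt for all genes.

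Annotated 3′ UTRs of the genes differed in length and base composition. The median length was 3146 nt for TGF-beta, 1697 nt for Wnt and 696 nt for Notch, against 1823 nt for all genes, from 97 nt in HES4 to 32870 nt for the longest transcript of SMAD2. In NRARP the peaks span 1235 nt, more than the 1102 nt of the annotated 3′ UTR, so sites beyond the annotation were not searched. G and C made up 61.9% of the 3′ UTR of HES5, 61.8% of that of NRARP and 57.7% of that of HES4, and 28.0% of that of FZD6, against a median of 39.7% over all genes.

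Genes with a GC-rich 3′ UTR had lower log ratios in the table at large. Among genes with a 3′ UTR peak, the median was −0.05 (interval −0.12 to 0.04) at 50% GC or more over 335 genes, and 0.24 (0.19 to 0.31) below 35% over 434 genes. Spearman's rho of GC and log ratio was −0.26 across the 23 genes and −0.17 across 2073 genes, as a description. Of the Notch genes, 1 of 3 at 40% GC or more lay above the all-gene median, against 441 of 1004 such genes in the table, and 0 of 3 below 40%, against 598 of 1069. The part of base composition in the Notch values was not tested.

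**Figure D5:**
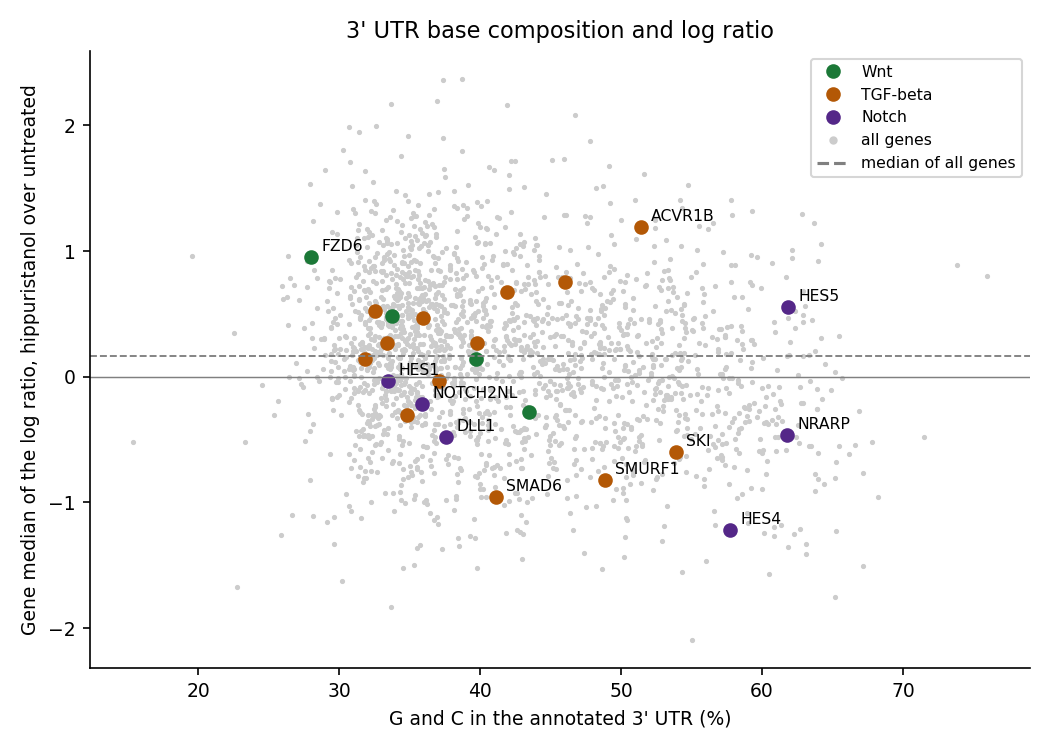
Percent G and C of the annotated 3′ UTR (x axis) against the gene median of the log ratio of hippuristanol over untreated (y axis, authors' log units) for the 23 signalling genes in colour and 2073 genes in grey. The 3 Notch genes with GC above 57% include the highest and the lowest Notch value, 0.55 and −1.22.

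MicroRNA seed sites were counted in the 3′ UTRs of the 20 signalling genes with a 3′ UTR peak and of 1527 such genes in the table. The motifs, searched on the strand of the RNA, were CTACCTC for let-7, GCACTTT for miR-17, TGCTGCT for miR-15/16, TTTGCAC for miR-19, GTGCAAT for miR-92/25, TTGCACT for miR-130, TGTTTAC for miR-30 and ACAGGGT for miR-10. Those of miR-19, miR-130 and miR-17 share letters and can overlap, as in BMPR2. A match shows only that these letters occur.

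A let-7 site was found in 6 of 20 genes (ACVR1B, ACVR1C, TGFBR3, SMAD2, NOTCH2NL and NRARP), against 15.0% of all genes, and a miR-130 site in 9 of 20 (FZD6, ACVR1, ACVR1B, ACVR1C, BMPR2, SMAD2, DLL1, NOTCH2NL and NRARP), against 27.6%. For the other families, miR-17 had 8 of 20 against 37.4%, miR-15/16 7 against 38.4%, miR-19 6 against 30.8%, miR-92/25 5 against 22.5%, miR-30 5 against 30.9% and miR-10 4 against 17.7%. Per kb of 3′ UTR, let-7 sites numbered 0.10 in the signalling genes and 0.07 in all genes, and miR-130 sites 0.12 and 0.13. The annotated 3′ UTR of SMAD2 is 32870 nt long and holds a site of all 8 families. This gene therefore adds to every count and weighs heavily in the rates of the signalling and TGF-beta genes. By pathway, let-7 sites per kb numbered 0.07 in TGF-beta genes and 0.43 in Notch genes, the latter from 3 sites. The 2 Wnt genes with a 3′ UTR peak had none. FZD4, whose peak lies in the 5′ UTR, was not counted, and its annotated 3′ UTR holds 1 let-7 site.

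Log ratios of the genes with a let-7 site ranged from −0.46 in NRARP to 1.19 in ACVR1B, with a median of 0.21 over the 6. In the whole table the median was 0.24 (interval 0.17 to 0.30) over 229 genes with a let-7 site and 0.16 (0.12 to 0.20) over 1298 without. Signalling genes with a site that lay above the all-gene median numbered 3 of 6 for let-7, 5 of 8 for miR-17, 4 of 7 for miR-15/16 and 5 of 6 for miR-19. Genes of the whole table numbered 130 of 229, 308 of 571, 305 of 587 and 248 of 470 for these families in turn. For the other families the signalling genes numbered 3 of 5 for miR-92/25, 4 of 9 for miR-130, 3 of 5 for miR-30 and 3 of 4 for miR-10. The whole table had 194 of 344, 218 of 421, 259 of 472 and 128 of 270. Whether a site goes with the log ratio was not tested.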

How the data were processed

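The 12 CLIP and 4 RNA-seq libraries are divided equally between hippuristanol and no treatment; the RNA-seq libraries were not analysed here. Values are scores that the authors deposited, per the file headers a normalized log average and a normalized log ratio of hippuristanol over untreated, 1 per peak. How libraries were pooled, the peak caller, the log base and the normalization are unknown. The tools named, per the submitters' processing notes, are TopHat, DESeq and Bowtie 0.12.8, with the build hg19. Of 4546 peaks whose gene GENCODE 29 names, 8.89% lay within its GRCh38 span, so coordinates of peaks are hg19, as deposited; whether starts count from 0 or 1 is unknown.

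Peaks with identical values in a gene (50, of which 1 in ACVR2B) were counted once, and gene values are medians. With pooled values, no test was run. Medians have exact order-statistic intervals, tested on simulated data, and are given from 6 genes upward. Over 6, 7 or 8 genes such an interval is the full range of the gene values. The 3′ UTR is the longest among complete coding GENCODE transcripts, found for 93.7% of genes; 22 members were matched by RefSeq identifier and SMAD6 by symbol. The members and lists were chosen with earlier results of these data known. Every member is named, and of each list of other pathway genes the 3 highest and 3 lowest. Python 3.11.15, pandas 2.3.3 and scipy 1.17.1 were used.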

Additional observations from a re-analysis of the deposited data

How the results depend on the processing

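The Notch median kept its direction under every alternative that was run, with differences from the all-gene median between −0.66 and −0.37. With 5 of the 6 genes below the all-gene median, leaving out 1 gene could not turn it. All 15 peaks lie in 3′ UTRs and 4 genes have a single peak, so several alternatives hardly altered the Notch values. The kept direction is therefore no measure of how firm the Notch median is. No Notch peak lies in coding sequence. Of single Notch genes, only NRARP and NOTCH2NL were left out, whereas each Wnt gene was left out in turn. The other pathways changed direction under some alternatives. The Wnt difference of 0.14 turned to −0.027 without FZD6 or without CTNNB1. It was 0.46 with 3′ UTR peaks only, 0.26 with coding sequence peaks only, 0.29 with genes of 2 or more peaks, 0.042 with peaks at or above the median log average, and 0.32 without FZD4 or without TCF7L2 (the values without CTNNB1, FZD4 or TCF7L2 were chosen after seeing the data). The TGF-beta difference of 0.10 turned to −0.031 with peaks at or above the median log average and was 0.60 with coding sequence peaks only, which leaves SMAD7. It was 0.31 with genes of 2 or more peaks, 0.047 with 3′ UTR peaks only, 0.036 with identical values kept and 0.035 without ACVR2B. For all 23 genes, the difference was −0.10 with 3′ UTR peaks only, −0.010 with all peaks pooled and −0.21 with peaks at or above the median log average. The difference of −0.03 turned to 0.53 with coding sequence peaks only, over 3 genes, and to 0.28 with genes of 2 or more peaks, over 9.

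With a threshold of 0.5 in place of 1, 6 genes and 12 peaks lay above it and 4 genes and 10 peaks below its negative. With log ratios taken relative to the median of all genes, 2 genes and 6 peaks lay below −1. No share over all genes or all peaks is given at these limits, so whether these counts differ from the background cannot be told. An 8 nt site was the 7 nt motif followed by an A, whether or not that A pairs with the microRNA. Requiring such a site left 3 of 20 genes for let-7, against 6.4% of all genes with a 3′ UTR peak. It left 1 for miR-17 against 12.3%, 2 for miR-15/16 against 10.9% and 4 for miR-19 against 14.5%. The count was 1 for miR-92/25 against 10.7%, 2 for miR-130 against 6.4%, 1 for miR-30 against 17.0% and 2 for miR-10 against 3.6%. The other alternative differences kept their direction within the interval over genes (for Wnt, within the range of its 4 genes), and the other counts lay within 1.5 times the main count.

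Leaving out a replicate or an antibody was not possible with pooled values. No paired analysis was possible because the table holds no values per library. Depth per library is unknown, and 14 of the 23 genes rest on a single peak.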
